A study of Homo sapiens with 6 samples.

Results

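The genes described here are 38 genes of the autophagy machinery, taken by symbol from the 26485 gene symbols of a count table. All 38 had a row in it, and 37 passed the filter on low counts and were tested, among 14018 tested genes in all. The RNA came from PC-9, a human lung adenocarcinoma cell line that carries an activating EGFR mutation. In the knockdown cells, called shIFITM3, a short hairpin RNA (shRNA) against IFITM3 was stably expressed, and the comparison cells carry what the protocol calls a control shRNA, shControl in the sample titles and ShEV in the column names of the table. These labels do not settle whether that was an empty vector or a control hairpin. Each group had 3 samples, labelled biological replicates, and both were grown in serum-containing RPMI medium with no drug or starvation named in the labels. How many hairpins were used, and whether the populations were clonal, is not given in the sources used here. IFITM3 is an interferon-induced membrane protein of late endosomes and lysosomes. The study's title names it together with MET, AKT and resistance to the EGFR inhibitor osimertinib.

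Autophagy encloses part of the cytoplasm in a double membrane, the autophagosome, and delivers it to lysosomes. The ULK1 kinase complex starts it, a lipid kinase complex marks the membrane with the phospholipid PI3P, and lipid carriers let the membrane grow. A conjugation system then attaches small ubiquitin-like proteins of the ATG8 family (LC3 and GABARAP) to that membrane, where they hold cargo receptors such as p62, and SNARE proteins and tethers finally join the vesicle to lysosomes. The kinase mTORC1, downstream of AKT, restrains the pathway, and transcription factors of the TFEB and FOXO families are known to raise many of its genes.

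Total counts were 21965506 to 23852371 in the shIFITM3 libraries and 21342028 to 77228760 in the shControl libraries. IFITM3 itself was at 10.4, 12.9 and 9.75 CPM (counts scaled to library size) in shIFITM3 and at 57.0, 60.5 and 62.8 CPM in shControl, so all 6 libraries bore out their labels. The 8 epithelial markers checked were found in every library, with summed levels of 9232 to 9481 CPM in shIFITM3 and 10212 to 10334 CPM in shControl. They went in both directions (adjusted p under 0.05, edgeR). EPCAM, CLDN4 and EGFR were called higher in shIFITM3, and KRT8, KRT18 and CDH1 lower. Those are 3 rises and 3 falls, where 27.7% of all tested genes rose and 28.4% fell. The 13 markers of immune cells, fibroblasts and endothelium summed to 86.0 to 95.3 CPM in shIFITM3 and 75.8 to 83.2 CPM in shControl, most of it CD68, a lysosomal protein gene (mean 75.9 CPM in shIFITM3 and 65.8 CPM in shControl). Of these markers, MS4A1, DCN and LUM were at 0 counts in all 6 libraries. The 4 that passed the filter on low counts were all called different (adjusted p under 0.05, edgeR), where 56.1% of all tested genes were. CD68, COL1A1 (11.5 CPM in shIFITM3, 9.56 CPM in shControl) and CDH5 (2.04 and 0.666 CPM) were higher in shIFITM3. PECAM1 was lower (0.842 and 2.70 CPM). The part of such cells in the results was not tested. Nothing in the labels says that replicates came from separate thaws or transductions, so p-values measure only the spread between these samples. In bulk RNA, more transcript per cell and more cells with the transcript cannot be told apart.

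Autophagy genes were mostly more abundant in knockdown cells. Of the 37 tested members 22 rose, 5 fell and 10 did not pass the threshold (adjusted p under 0.05, edgeR). Of all tested genes 56.1% passed, 27.7% with a rise and 28.4% with a fall. Log2 fold changes of the members had a median of 0.31, and those of all tested genes one of -6.33e-05. Of the members, 4 rose at least 2-fold (WIPI1, GABARAPL1, ULK1 and OPTN), where 4.83% of all tested genes did, and 0 fell that far (1.69% of all tested genes). Against a 1.2-fold change, 17 members still rose (14.5% of all tested genes) and 1 fell, ATG4C (10.5% of all tested genes). In 23 members every shIFITM3 library lay above every shControl library (30.1% of all tested genes), and in 5 every one lay below (30.8%), so that the groups did not overlap in 28 members (60.9% of all tested genes). The lowest count of a tested member in any library was 68, so none passed the filter through 1 group alone.

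**Figure D1:**
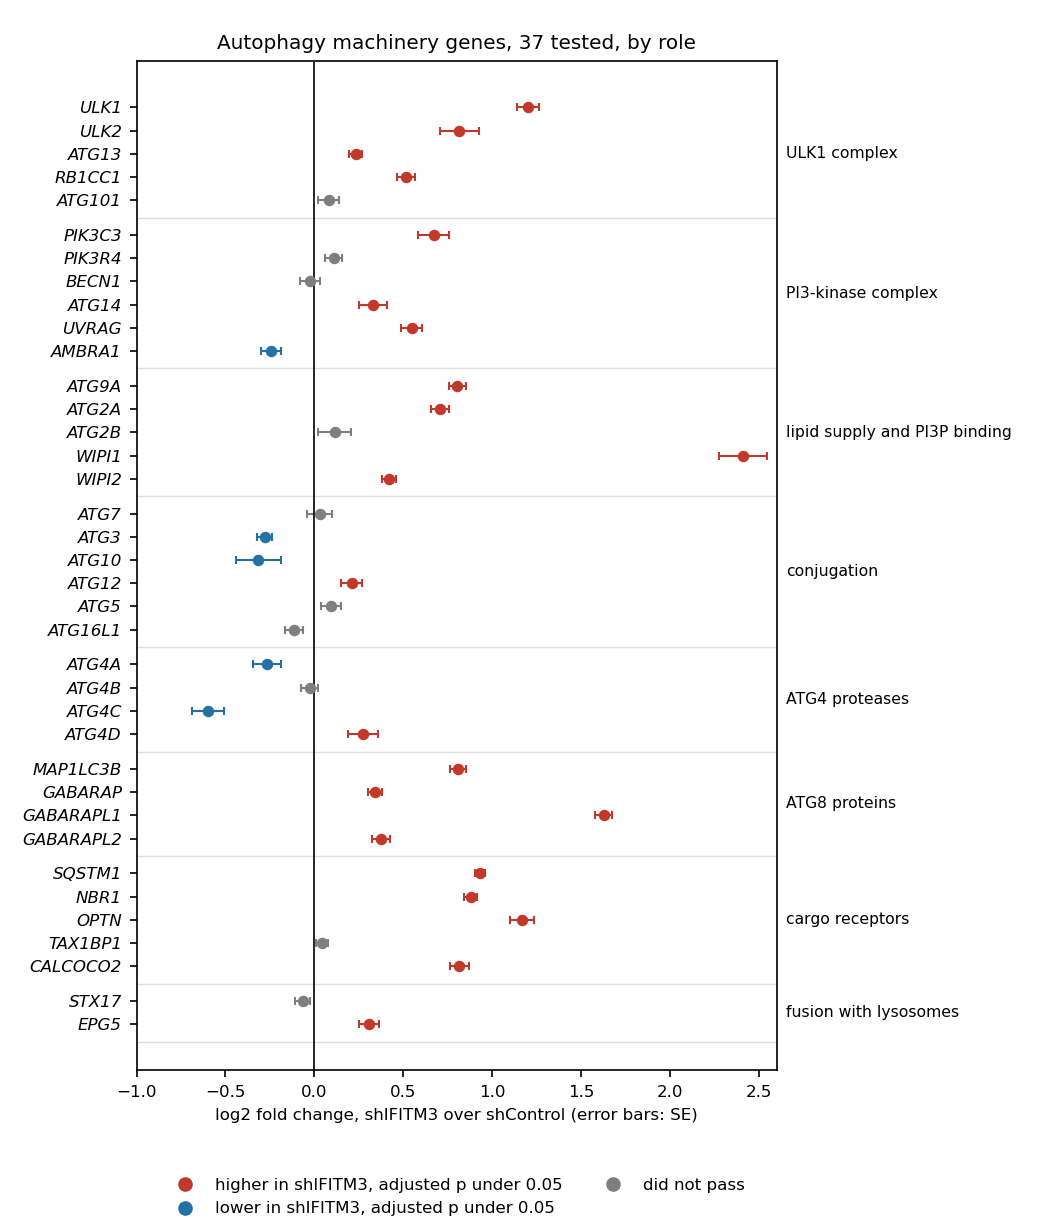
Log2 fold change of each tested member (x axis, shIFITM3 over shControl) with its SE, ordered by role in the pathway, with red for members that rose, blue for members that fell and grey for those that did not pass. WIPI1 lies farthest to the right at 2.41 and ATG4C farthest to the left at -0.60. The 4 ATG8 genes are all red, and the conjugation and ATG4 protease genes lie on both sides of 0.

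The 250 bases before the start of 5 members are shown here because these members include both rises and a fall and 4 of them hold one of the letter patterns searched. The windows come from RefSeq (GRCh38.p14), which gave 40 windows for 32 of the 38 members. No window was listed for ATG4D, EPG5, MAP1LC3A, RB1CC1, STX17 and UVRAG. The patterns searched, on both strands, were CACGTG (the E-box core read by TFEB, TFE3, MITF and other basic helix-loop-helix factors), GTAAACA or TGTTTAC (read by FOXO and other forkhead factors) and TGACGTCA (the cyclic AMP response element, read by CREB and ATF factors). None of these patterns holds another. Capitals mark a match, and all windows are written 5′ to 3′ on the strand of the gene:
WIPI1: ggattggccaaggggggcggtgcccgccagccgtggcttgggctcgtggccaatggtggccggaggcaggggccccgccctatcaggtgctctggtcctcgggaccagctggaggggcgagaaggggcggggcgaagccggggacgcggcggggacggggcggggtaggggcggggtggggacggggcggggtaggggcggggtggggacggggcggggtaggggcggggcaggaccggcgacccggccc
GABARAPL1: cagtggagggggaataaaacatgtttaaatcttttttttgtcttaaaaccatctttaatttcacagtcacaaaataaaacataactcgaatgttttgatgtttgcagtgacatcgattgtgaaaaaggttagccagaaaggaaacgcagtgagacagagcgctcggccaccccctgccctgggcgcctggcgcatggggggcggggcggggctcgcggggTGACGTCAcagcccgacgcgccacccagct
CALCOCO2: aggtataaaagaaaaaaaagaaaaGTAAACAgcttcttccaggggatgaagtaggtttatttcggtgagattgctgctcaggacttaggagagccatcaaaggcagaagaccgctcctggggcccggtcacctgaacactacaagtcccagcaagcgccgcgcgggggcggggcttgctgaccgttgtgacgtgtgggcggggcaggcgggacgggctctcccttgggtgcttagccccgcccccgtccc
ATG14: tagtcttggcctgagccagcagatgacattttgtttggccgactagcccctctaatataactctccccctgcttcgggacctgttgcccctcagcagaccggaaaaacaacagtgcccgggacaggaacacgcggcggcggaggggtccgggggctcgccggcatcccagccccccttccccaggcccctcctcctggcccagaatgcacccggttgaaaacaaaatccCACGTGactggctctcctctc
ATG3: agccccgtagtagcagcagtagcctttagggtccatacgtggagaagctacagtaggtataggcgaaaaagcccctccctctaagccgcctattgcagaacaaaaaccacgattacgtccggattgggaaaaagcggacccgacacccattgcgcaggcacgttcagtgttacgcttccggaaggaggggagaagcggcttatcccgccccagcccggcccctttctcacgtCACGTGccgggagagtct
The windows were chr17:68457497-68457746 (minus strand) for WIPI1, chr12:10212627-10212876 (plus) for GABARAPL1, chr17:48830785-48831034 (plus) for CALCOCO2, chr14:55411831-55412080 (minus) for ATG14 and chr3:112561963-112562212 (minus) for ATG3. Among the members' windows CACGTG was found in 2, those of ATG14, which rose, and ATG3, which fell, and 6.34% of 35116 RefSeq windows of this length held it. GTAAACA was found in 1 member, CALCOCO2 (2.98% of all windows), and TGACGTCA in 1, GABARAPL1 (1.65%). The window of WIPI1, the member with the highest log2 fold change, held none of the 3 patterns. A match is a description of letters, and sites farther from the start or within the gene were not searched.

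The kinases that start autophagy rose. ULK1 (chromosome 12, 131894622 to 131923150), the serine-threonine kinase of the initiation complex, was at 56.4, 66.4 and 63.3 CPM in shIFITM3 and 26.5, 26.7 and 27.9 CPM in shControl. The groups were far apart, and the fitted change was 2.30-fold (SE of its log2 value 0.0618, edgeR adjusted p = 4.64e-14). Its paralog ULK2 (chromosome 17) was expressed lower, at 14.5, 12.3 and 13.2 CPM in shIFITM3 and 7.92, 6.90 and 8.25 CPM in shControl, and rose by 0.82 (SE 0.111, edgeR adjusted p = 1.13e-06). RB1CC1 on chromosome 8, which encodes the scaffold FIP200, averaged 88.9 ± 4.84 CPM in shIFITM3 and 62.4 ± 3.66 CPM in shControl (SD, n = 3 each), and rose by 0.52 on the log2 scale (edgeR adjusted p = 7.05e-09). ATG13, the adaptor that links the kinase to that scaffold, rose by 0.23, to 148 ± 3.76 CPM in shIFITM3 against 126 ± 0.372 CPM in shControl. ATG101, the partner of ATG13, was at 53.5 to 59.5 CPM in shIFITM3 and 49.7 to 57.0 CPM in shControl, overlapping ranges (log2 fold change 0.08, edgeR adjusted p = 0.249). In this complex, then, 4 of 5 genes rose and 0 fell (27.7% and 28.4% of all tested genes), with a median of 0.52. ATG13 did not pass the test against a 1.2-fold change (edgeR adjusted p = 0.934).

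Of the 6 genes of the lipid kinase complex 3 were higher and 1 was lower (27.7% and 28.4% of all tested genes), with a median of 0.22. PIK3C3, the catalytic subunit that makes PI3P, was at 25.6, 22.3 and 24.7 CPM in shIFITM3 and 16.7, 15.4 and 13.5 CPM in shControl, without overlap (log2 fold change 0.67, SE 0.0882, edgeR adjusted p = 6.49e-07). UVRAG and ATG14 are alternative partners that direct the kinase to endosomes and to forming autophagosomes. UVRAG rose by 0.55, to 44.1 ± 1.61 CPM in shIFITM3 against 30.1 ± 1.38 CPM in shControl, and ATG14 by 0.33, to 25.4 ± 2.27 CPM in shIFITM3 against 20.2 ± 0.365 CPM in shControl (edgeR adjusted p = 3.84e-08 and 0.000832). BECN1, the core subunit Beclin 1, was at 42.2 ± 0.979 CPM in shIFITM3 and 43.0 ± 1.45 CPM in shControl, with overlapping ranges (log2 fold change -0.03, edgeR adjusted p = 0.716). Its exons overlap those of PSME3 on the opposite strand, which fell (-0.28). PIK3R4, the regulatory subunit, was at 61.7 to 65.1 CPM in shIFITM3 and 58.6 to 60.3 CPM in shControl and did not pass (0.11, edgeR adjusted p = 0.0557). It did pass under 6 alternatives, without shIFITM3 replicate 1 among them (edgeR adjusted p = 0.044). AMBRA1, a scaffold that promotes ULK1 and Beclin 1 activity, was the member that fell, at 39.9, 36.9 and 40.8 CPM in shIFITM3 and 47.2, 46.3 and 45.9 CPM in shControl (log2 fold change -0.24, SE 0.0561, edgeR adjusted p = 0.000668). The fall did not pass against a 1.2-fold change (edgeR adjusted p = 0.714), nor did the rise of ATG14 (0.212).

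Genes of membrane supply and PI3P binding included the highest fold change among the members. WIPI1 (chromosome 17, 68421281 to 68457496), which binds PI3P on the growing membrane, was at 22.5, 15.96 and 20.1 CPM in shIFITM3 and 3.21, 3.47 and 4.42 CPM in shControl, or 496, 367 and 481 counts against 68, 267 and 121 counts. Even the lowest shIFITM3 library was well above the highest shControl library, and the fitted change was 5.31-fold (log2 fold change 2.41, SE 0.136, edgeR adjusted p = 2.54e-13). Its exons overlap those of ARSG on the opposite strand, which was at 2.61 ± 0.136 CPM in shIFITM3 and 3.17 ± 0.195 CPM in shControl (edgeR adjusted p = 0.24). WIPI2, the relative that recruits the conjugation machinery, was more abundant and rose by 0.42, at 160, 158 and 153 CPM in shIFITM3 and 118, 118 and 117 CPM in shControl (SE 0.0376, edgeR adjusted p = 1.28e-09). Per kilobase of merged exon, WIPI1 made up 24.6% ± 3.14 of the summed WIPI1 and WIPI2 level in shIFITM3 and 7.66% ± 1.25 in shControl (SD, n = 3 each).

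Both partners of the lipid transfer step rose as well. ATG9A, a membrane protein that moves lipids between the leaflets, was at 98.6, 97.0 and 97.3 CPM in shIFITM3 and 53.4, 58.5 and 55.0 CPM in shControl (log2 fold change 0.80, SE 0.0463, edgeR adjusted p = 4.01e-13). ATG2A, which carries lipids from the endoplasmic reticulum to the growing membrane, was at 79.5, 78.2 and 70.8 CPM in shIFITM3 and 46.0, 46.8 and 47.2 CPM in shControl (0.71, SE 0.0514, edgeR adjusted p = 2.88e-11). Its paralog ATG2B had overlapping ranges, 13.6 to 14.8 CPM in shIFITM3 and 12.7 to 13.7 CPM in shControl (0.11, edgeR adjusted p = 0.312). Of the 5 genes of membrane supply and PI3P binding 4 rose and 0 fell (27.7% and 28.4% of all tested genes), with a median of 0.71.

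Of the 6 conjugation genes 1 was higher and 2 were lower (27.7% and 28.4% of all tested genes), with a median of -0.04. ATG3, the E2-like enzyme that attaches ATG8 proteins to phosphatidylethanolamine, was at 93.6, 98.2 and 96.3 CPM in shIFITM3 and 114, 116 and 120 CPM in shControl, without overlap (log2 fold change -0.28, SE 0.0413, edgeR adjusted p = 3.63e-06). ATG10, the E2-like enzyme for ATG12, was at 5.91, 7.57 and 8.29 CPM in shIFITM3 and 9.66, 8.72 and 8.90 CPM in shControl (-0.31, edgeR adjusted p = 0.0384). That call ended without shIFITM3 replicate 1 (0.22), shControl replicate 1 (0.0971), shControl replicate 2 (0.0588) or shControl replicate 3 (0.0619), each an edgeR adjusted p, and also under DESeq2 (0.0624) and with the deepest library thinned (0.0879). ATG10 overlaps the far more abundant RPS23 on the opposite strand, which was at 383 ± 2.68 CPM in shIFITM3 and 433 ± 16.8 CPM in shControl and also fell (-0.18), and the part of such reads in its value was not tested. ATG12, the ubiquitin-like protein joined to ATG5, rose by 0.21, to 49.5 ± 0.325 CPM in shIFITM3 against 43.0 ± 2.76 CPM in shControl (edgeR adjusted p = 0.003).

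The remaining conjugation genes did not pass. ATG7, the E1-like enzyme of both conjugation reactions, was at 28.7 to 34.1 CPM in shIFITM3 and 29.3 to 31.9 CPM in shControl (log2 fold change 0.03, edgeR adjusted p = 0.751). ATG5 was at 49.7 to 55.7 CPM in shIFITM3 and 47.6 to 52.1 CPM in shControl (0.09, edgeR adjusted p = 0.163), and passed without shIFITM3 replicate 2 (0.0401). ATG16L1, which places the ATG12-ATG5 conjugate on membranes, was at 62.4 to 65.0 CPM in shIFITM3 and 65.0 to 72.9 CPM in shControl (-0.11, edgeR adjusted p = 0.0568), and passed under 5 alternatives, without shControl replicate 3 among them (0.0187). None of the 3 calls in this group passed against a 1.2-fold change.

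The ATG4 proteases, which trim ATG8 proteins before conjugation and release them afterwards, went in both directions. ATG4C fell clearly, at 12.4, 11.7 and 12.97 CPM in shIFITM3 and 19.6, 18.4 and 18.3 CPM in shControl (log2 fold change -0.60, SE 0.0884, edgeR adjusted p = 3.56e-06), the lowest fold change of any member. ATG4A fell by 0.27 on the log2 scale, to 18.2 ± 1.41 CPM in shIFITM3 against 21.9 ± 0.418 CPM in shControl (edgeR adjusted p = 0.00686). ATG4D rose by 0.27, to 19.0 ± 1.05 CPM in shIFITM3 against 15.7 ± 1.04 CPM in shControl (edgeR adjusted p = 0.00945), a call that ended after correction for GC content and length (0.0634). ATG4B is the most active of the 4 towards LC3 in biochemical work. It was at 80.9 to 92.5 CPM in shIFITM3 and 86.4 to 90.5 CPM in shControl, overlapping ranges (-0.03, edgeR adjusted p = 0.672). ATG4B was called lower after the same correction (-0.15, adjusted p = 0.00527). That correction moved the median log2 fold change of all tested genes to -0.0596.

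All 4 tested ATG8 genes rose, where 27.7% of all tested genes did. GABARAPL1 (chromosome 12, 10212877 to 10223128) changed most among them, at 139, 127 and 142 CPM in shIFITM3 and 44.6, 43.0 and 44.6 CPM in shControl. The libraries of each group were close together, and the fitted change was 3.09-fold (log2 fold change 1.63, SE 0.0483, edgeR adjusted p = 1.21e-18). MAP1LC3B (chromosome 16), which encodes the LC3B protein used as the standard marker of autophagosomes, was at 95.5, 90.9 and 93.6 CPM in shIFITM3 and 52.4, 52.6 and 55.1 CPM in shControl (0.81, SE 0.0457, edgeR adjusted p = 2.74e-13). GABARAP and GABARAPL2 rose less. GABARAP was at 121, 122 and 122 CPM in shIFITM3 and 97.7, 93.4 and 97.6 CPM in shControl (0.34, edgeR adjusted p = 1.24e-07), and GABARAPL2 at 66.8, 64.4 and 68.2 CPM in shIFITM3 and 52.0, 50.3 and 52.0 CPM in shControl (0.37, edgeR adjusted p = 5.16e-07). MAP1LC3A was practically absent, with 0, 0 and 2 counts in shIFITM3 and 0, 2 and 0 counts in shControl, and was not tested. A count of 0 allows up to 3 counts, which is 0.0390 to 0.141 CPM depending on the library, for counting error only.

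The make-up of the ATG8 transcripts therefore differed between the groups. Per kilobase of merged exon, GABARAPL1 held 26.6%, 25.2% and 26.9% of the summed level of the 4 expressed genes in shIFITM3 and 13.5%, 13.5% and 13.4% in shControl. GABARAP held the highest share in both groups, 42.5% ± 0.981 in shIFITM3 and 52.9% ± 0.263 in shControl (SD, n = 3 each). The share of GABARAPL2 was 17.3% ± 0.105 in shIFITM3 and 21.1% ± 0.0815 in shControl, and that of MAP1LC3B 13.9% ± 0.213 in shIFITM3 and 12.5% ± 0.298 in shControl. The groups overlapped in none of the 4 shares, which are given without a test and rest on exon lengths merged over all annotated transcripts. Whether reads of near-identical copies were assigned to these genes was not tested. The copy GABARAPL3 had 0 counts in every shIFITM3 library and 6 counts in all in shControl. MAP1LC3B2, a close copy of MAP1LC3B, was at 2.62 ± 0.354 CPM in shIFITM3 and 2.39 ± 0.388 CPM in shControl.

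**Figure D2:**
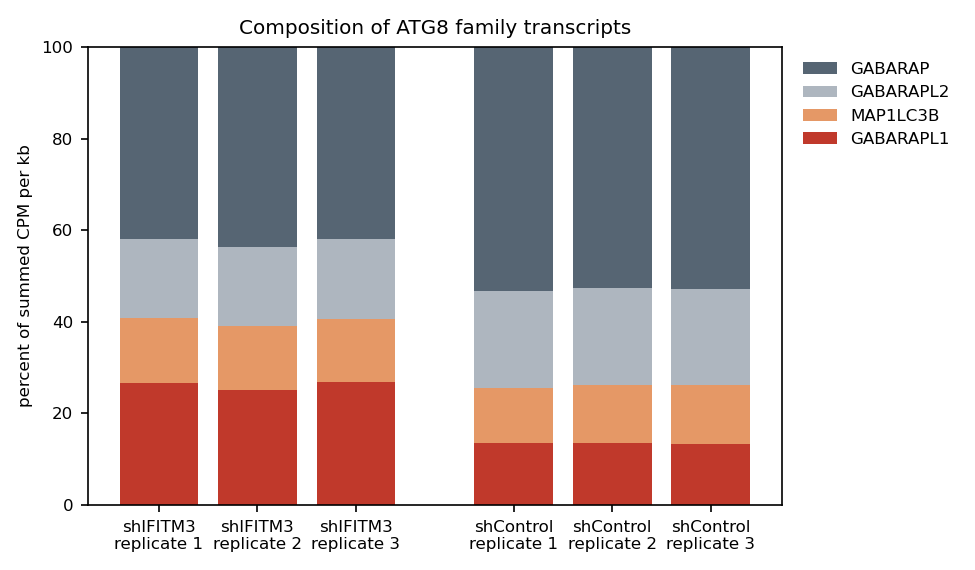
Share of each expressed ATG8 gene (y axis, percent of the summed CPM per kilobase of merged exon) in the 3 shIFITM3 and the 3 shControl libraries. The red GABARAPL1 part takes 25.2% to 26.9% of each shIFITM3 bar and 13.4% to 13.5% of each shControl bar, and GABARAP, at the top, takes the highest share in every bar.

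Cargo receptors bind ubiquitinated or damaged material with one end and ATG8 proteins with the other. Of the 5 members of this kind 4 rose and 0 fell (27.7% and 28.4% of all tested genes), with a median of 0.88. SQSTM1 (chromosome 5, 179806393 to 179838078), the gene of p62, had the highest level per length of any member, 195 CPM per kilobase in shIFITM3 and 103 CPM per kilobase in shControl. It was at 1492, 1468 and 1528 CPM in shIFITM3 and 773, 775 and 809 CPM in shControl, a tight spread in both groups (log2 fold change 0.93, SE 0.0271, edgeR adjusted p = 8.63e-19). Its exons overlap those of MGAT4B on the opposite strand, which rose too (0.75, to 334 ± 8.09 CPM in shIFITM3 against 198 ± 6.57 CPM in shControl). As the strand setting of the counting is not given, part of either value may be shared. NBR1, a relative of p62 that works with it on ubiquitin condensates, was at 177, 172 and 175 CPM in shIFITM3 and 94.5, 96.5 and 93.7 CPM in shControl (0.88, SE 0.0381, edgeR adjusted p = 1.74e-15).

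The receptors known for removal of mitochondria and bacteria followed. OPTN, optineurin, was at 57.4, 49.4 and 51.6 CPM in shIFITM3 and 25.3, 22.2 and 23.8 CPM in shControl (log2 fold change 1.17, SE 0.0671, edgeR adjusted p = 3.9e-13). CALCOCO2, the gene of NDP52, was at 54.3, 55.6 and 54.6 CPM in shIFITM3 and 31.3, 30.8 and 31.6 CPM in shControl (0.81, SE 0.0537, edgeR adjusted p = 4.8e-12). TAX1BP1, a structural relative of NDP52, was the exception, at 254, 247 and 259 CPM in shIFITM3 and 254, 235 and 251 CPM in shControl, overlapping values that did not pass (0.04, SE 0.0361, edgeR adjusted p = 0.328). It held 10.6% ± 0.0445 of the summed receptor level per kilobase in shIFITM3 and 18.02% ± 0.591 in shControl (SD, n = 3 each), while SQSTM1 held 75.0% ± 0.359 in shIFITM3 and 68.8% ± 0.732 in shControl.

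**Figure D3:**
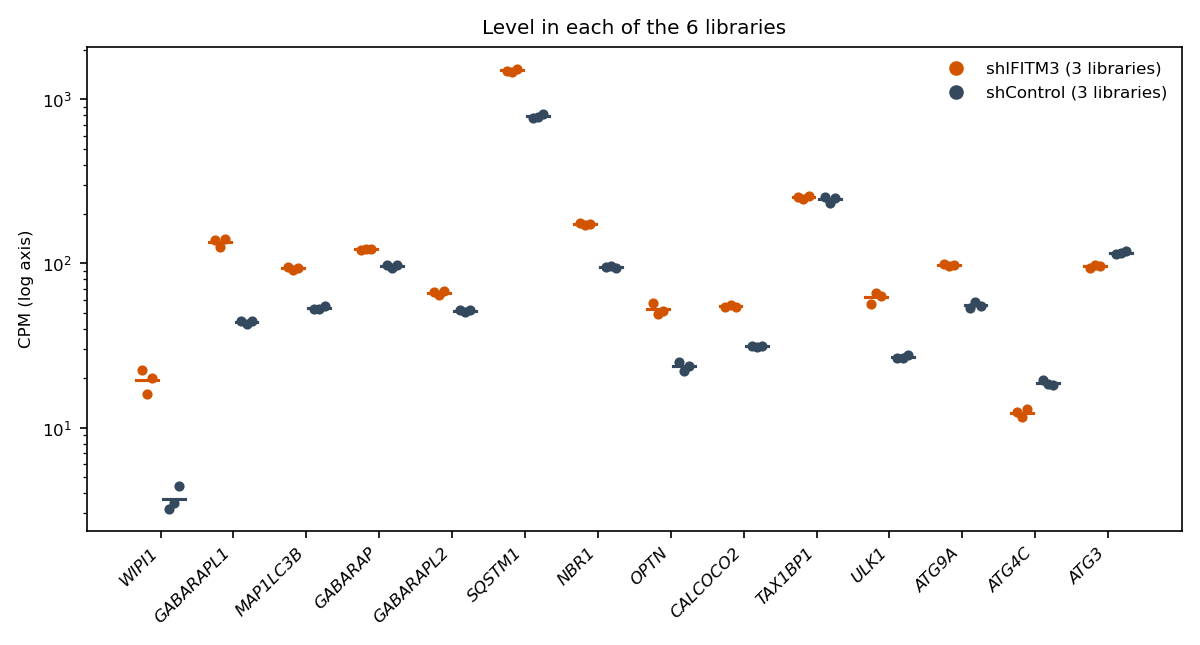
CPM on a log axis (y) of 14 members in each library, with shIFITM3 in orange to the left of shControl in dark grey, and a bar at each mean. WIPI1 and GABARAPL1 show the widest gaps between the groups, the TAX1BP1 points overlap, and ATG4C and ATG3 lie lower in shIFITM3.

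At the last step, fusion with lysosomes, the SNARE gene STX17 was at 74.3, 76.6 and 73.1 CPM in shIFITM3 and 76.3, 78.6 and 79.5 CPM in shControl, overlapping values (log2 fold change -0.07, edgeR adjusted p = 0.21). EPG5, a tether for that fusion, rose by 0.31, at 42.0, 42.8 and 42.2 CPM in shIFITM3 and 35.0, 34.8 and 32.8 CPM in shControl (SE 0.057, edgeR adjusted p = 6.54e-05), though not against a 1.2-fold change (0.237). A list of 16 further fusion genes had 5 that rose and 1 that fell (27.7% and 28.4% of all tested genes), with a median of 0.08. After correction for GC and length 3 rose and 3 fell, under upper-quartile scaling 5 rose and 3 fell, and against a 1.2-fold change 2 rose and 0 fell. The fall also ended with the deepest library thinned and without shIFITM3 replicate 1, shIFITM3 replicate 3 or shControl replicate 2 (0 fell in each). PLEKHM1, an adaptor that joins GABARAP proteins to the lysosomal tether HOPS, rose by 0.91, to 38.7 ± 1.53 CPM in shIFITM3 against 20.6 ± 0.725 CPM in shControl. The endosomal SNARE gene STX7 rose by 0.61, to 52.0 ± 3.82 CPM in shIFITM3 against 33.9 ± 0.786 CPM in shControl. RAB7A, the GTPase of late endosomes, rose by 0.15, to 475 ± 3.64 CPM in shIFITM3 against 427 ± 11.1 CPM in shControl (edgeR adjusted p at most 0.000112 for these 3 genes), and the RAB7A rise did not pass against a 1.2-fold change (1).

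Further core autophagy genes gave 8 rises and 2 falls among 19 tested (27.7% and 28.4% of all tested genes), with a median of 0.11. The rises include the low-count ATG9B, described below. Under the alternative with a higher filter on counts, 7 genes of this list rose and 2 fell. WDR45, which encodes WIPI4, a PI3P-binding partner of the ATG2 proteins, was at 22.6, 20.0 and 20.9 CPM in shIFITM3 and 9.99, 11.4 and 9.93 CPM in shControl (log2 fold change 1.00, SE 0.0931, edgeR adjusted p = 2.35e-09). It overlaps PRAF2 on the same strand, whose log2 fold change was -0.0013. ATG9B, the paralog of ATG9A, had a low level that rose to 2.44 ± 0.468 CPM in shIFITM3 against 0.290 ± 0.0375 CPM in shControl (3.07, SE 0.345, edgeR adjusted p = 5.46e-08). Its counts were 43, 57 and 69 in shIFITM3 and 7, 22 and 7 in shControl, so it passed the filter on low counts through shIFITM3 alone, and its difference is given only as a description. Its exons overlap those of NOS3 on the opposite strand, which was more abundant in shIFITM3, at 5.09 ± 0.516 CPM against 0.191 ± 0.0862 CPM in shControl (4.52), and how far reads are shared between the pair was not tested. TMEM41B, a lipid scramblase of the endoplasmic reticulum, rose by 0.53, to 56.9 ± 1.93 CPM in shIFITM3 against 39.6 ± 3.002 CPM in shControl (edgeR adjusted p = 3.04e-08).

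Further selective autophagy receptors and adaptors gave 10 rises and 2 falls among 19 tested (27.7% and 28.4% of all tested genes), with a median of 0.15. RETREG1, listed under its older symbol FAM134B and known for turnover of the endoplasmic reticulum, was at 12.3, 13.1 and 13.3 CPM in shIFITM3 and 5.75, 5.47 and 4.196 CPM in shControl (FAM134B log2 fold change 1.32, SE 0.123, edgeR adjusted p = 2.4e-09). CALCOCO1, a relative of NDP52, rose by 1.31, to 39.4 ± 3.97 CPM in shIFITM3 against 15.8 ± 0.596 CPM in shControl, and TOLLIP, an endosomal adaptor, by 0.93, to 43.0 ± 2.78 CPM in shIFITM3 against 22.4 ± 1.90 CPM in shControl (edgeR adjusted p = 5.14e-13 and 5.25e-11). The next 7 genes, which act in the removal of mitochondria, were chosen after their values were seen. PINK1, the kinase that marks damaged mitochondria, rose by 0.84 and BNIP3L by 0.43, whereas BNIP3 had a log2 fold change of -0.23 and PHB2 one of -0.22, both called lower (edgeR adjusted p = 6.65e-09, 5.41e-07, 0.0016 and 1.73e-06 for the 4 genes in this order). Neither BNIP3 nor PHB2 passed against a 1.2-fold change (edgeR adjusted p = 0.789 and 1). The receptor genes FUNDC1 (-0.18), FKBP8 (0.05) and BCL2L13 (0.02) did not pass.

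The transcription factors known to act on autophagy genes were measured too. In a list of TFEB family factors and the folliculin and Rag proteins that control them, 8 of 10 tested genes rose and 1 fell (median 0.46). Of all tested genes 27.7% rose and 28.4% fell. The rises include RRAGD, named here for its low counts of 18, 24 and 17 in shIFITM3 and 10, 28 and 6 in shControl. Its difference is given only as a description. Under the alternative with a higher filter on counts, 7 genes of the list rose and 0 fell. TFE3 was at 66.3, 65.7 and 69.0 CPM in shIFITM3 and 47.7, 47.9 and 48.6 CPM in shControl (log2 fold change 0.48, SE 0.0483, edgeR adjusted p = 9.11e-09). The genes of folliculin and its partner, FLCN and FNIP1, which act on the Rag GTPases, rose by 0.73 and 0.75, FLCN to 34.4 ± 1.93 CPM in shIFITM3 against 20.9 ± 0.444 CPM in shControl and FNIP1 to 43.2 ± 1.79 CPM in shIFITM3 against 25.7 ± 1.38 CPM in shControl (edgeR adjusted p = 3.14e-09 and 4.23e-10). Named after their values were seen, MITF rose by 0.45 (edgeR adjusted p = 7.54e-06), and TFEB was the gene that fell, at 3.68, 3.39 and 3.43 CPM in shIFITM3 and 3.72, 4.96 and 4.96 CPM in shControl (-0.40, edgeR adjusted p = 0.0475). The TFEB call ended under 12 of the 17 alternatives, among them without shIFITM3 replicate 1, 2 or 3 (adjusted p = 0.059, 0.0969 and 0.0959) and without shControl replicate 2 or 3 (0.213 and 0.129).

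Of the 4 FOXO genes, 1 rose and 2 fell (27.7% and 28.4% of all tested genes). The most abundant, FOXO3, named after its values were seen, did not pass (log2 fold change -0.01, edgeR adjusted p = 0.909). It was at 117 ± 4.51 CPM in shIFITM3 and 117 ± 3.33 CPM in shControl. FOXO4 was at 13.5, 12.96 and 13.3 CPM in shIFITM3 and 4.85, 7.43 and 7.30 CPM in shControl (log2 fold change 0.98, SE 0.127, edgeR adjusted p = 4.82e-07). FOXO1 fell to 16.7 ± 0.987 CPM in shIFITM3 against 21.5 ± 1.48 CPM in shControl (-0.36, edgeR adjusted p = 0.000732, not passed against a 1.2-fold change at 0.134), and FOXO6 to 4.61 ± 1.23 CPM in shIFITM3 against 7.64 ± 0.118 CPM in shControl (-0.72, edgeR adjusted p = 0.000325). These are transcript levels, and the activity of these factors, which depends on their location in the cell, was not measured.

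**Figure D4:**
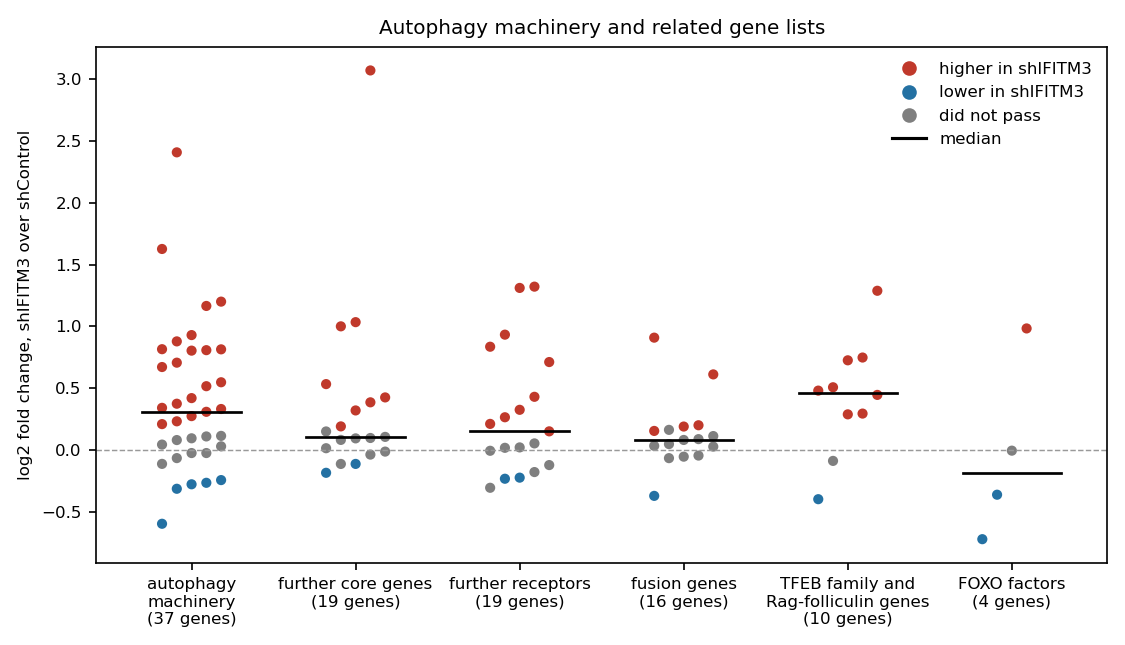
Log2 fold change (y axis, shIFITM3 over shControl) of every tested gene in the autophagy machinery and in 5 related lists, with red for rises, blue for falls, grey for genes that did not pass and a black bar at each median. The medians are 0.31 for the machinery, 0.11, 0.15 and 0.08 for further core genes, receptors and fusion genes, 0.46 for the TFEB family list and -0.18 for the FOXO factors.

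Of the 38 members, 14 share exon sequence with another listed gene, always on the opposite strand, and the library kit marks strand while the setting of the counting is not given. Among the tested members without such an overlap 15 of 23 rose and 3 fell (27.7% and 28.4% of all tested genes). Among those with one 7 of 14 rose and 2 fell. Among the genes they overlap, MGAT4B (beside SQSTM1) rose, PSME3 (beside BECN1) and RPS23 (beside ATG10) fell, and SLC35A5 (beside ATG3) rose by 0.15 while ATG3 itself fell. The partners of ATG13, ATG2B, WIPI1, ATG7, ATG12, ATG4B, ATG4D, MAP1LC3B and TAX1BP1 did not pass, and the partner of OPTN, CCDC3, was too low to be tested (0.129 CPM in shIFITM3 and 0.117 CPM in shControl).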

How the data were processed

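Messenger RNA from 6 samples of PC-9 cells was sequenced after Illumina stranded library preparation, per the labels' protocols. The authors deposited raw counts of reads per gene symbol, with no normalization, in a table of 26485 symbols. The submitters' processing notes name the build hg38, the aligner HISAT2 2.2.1, featureCounts of Subread 2.0.6, and fastp 0.23.4, FastQC 0.12.1 and SAMtools 1.20. Which gene annotation and strand option featureCounts ran with is not stated in those notes or in the labels.

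From the counts, genes passing filterByExpr (default settings by group) were scaled by TMM and fitted in edgeR 4.0.16 (R 4.3.3) with glmQLFit on group alone. Genes were tested two-sided with glmQLFTest, and p-values were adjusted by Benjamini-Hochberg over all 14018 tested genes, with a threshold of 0.05. Each SE was obtained from the log2 fold change and its quasi-likelihood F. CPM uses TMM-scaled totals of the tested genes. Exon lengths and overlaps came from GENCODE 29, and coordinates from RefSeq (GRCh38.p14, the assembly of hg38). The fit was tested on simulated data. List symbols missing from the table were matched through RefSeq synonyms, which placed 3 genes.

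Members and lists were chosen with earlier results of these data known. Named are all members, IFITM3, and of each related list the 3 genes with the smallest p among those that passed with a mean of at least 1 CPM. Cell type markers, overlap partners and near-identical copies are named as checks, and other genes outside this rule are marked as such. Alternatives were 3 other scalings, no filter, a filter of 50 counts in 3 samples, DESeq2 1.42.0, limma-voom (limma 3.58.1), a test against a 1.2-fold change, the replicate number as a block, a thinned deepest library, a correction for GC and length, and each sample left out.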

Additional observations from a re-analysis of the deposited data

How the results depend on the processing

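Of the 37 tested members, 22 kept their direction and their side of the threshold under all 17 alternatives (17 that rose, 1 that fell, 4 that did not pass). The count of members that rose ranged from 17 to 23. Against a 1.2-fold change, 17 members rose and 1 fell, 21 genes of the related lists rose and 1 fell, and over all genes 2028 rose and 1470 fell. Leaving out 1 library at a time, 22 to 23 members rose and 4 to 5 fell, 30 to 32 genes of the related lists rose and 6 to 8 fell, and over all genes 3560 to 3736 rose and 3564 to 3844 fell. The direction turned for members near 0. ATG7 had a log2 fold change of -0.0546 after correction for GC and length, and from -0.0424 (without shIFITM3 replicate 2) to 0.0806 (without shIFITM3 replicate 1) with a library left out, at -0.0064 without shControl replicate 2. With a library left out, ATG4B ranged from -0.0734 (without shIFITM3 replicate 2) to 0.0216 (without shIFITM3 replicate 1). TAX1BP1 had a log2 fold change of -0.039 after the GC and length correction. That correction moved the median of all tested genes to -0.0596, from -6.33e-05 in the main setting. With it, ATG7 and TAX1BP1 both lay above the median of all tested genes. Of all genes called different, 40.1% were higher after the correction and 49.4% in the main setting. The causes were not tested. With the replicate block, 23 members rose and 6 fell, as PIK3R4 (adjusted p = 0.0479) and ATG16L1 (0.0417) then passed. Deviations of same-numbered samples correlated at 0.016, 0.033 and 0.0063, so the numbers were not taken to pair samples. MAP1LC3A, with 0 to 2 counts in each library, was not tested. The ATG10 call ended with the deepest library thinned (edgeR adjusted p = 0.0879). It also ended at full depth under DESeq2 (0.0624) and, among others, without shIFITM3 replicate 1 (edgeR adjusted p = 0.22). The part of depth in this was not tested.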

Other observations

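ATG16L2, a paralog of ATG16L1, was at 3.94 ± 0.373 CPM in shIFITM3 and 3.74 ± 0.393 CPM in shControl (SD, n = 3 each), and its log2 fold change of 0.10 did not pass (edgeR adjusted p = 0.664). MAP1LC3C was too low to be tested, with a mean of 0.144 ± 0.130 CPM in shIFITM3 and 0.433 ± 0.101 CPM in shControl. ZFYVE1, which encodes the PI3P-binding protein DFCP1 that marks sites of autophagosome formation, rose to 10.5 ± 1.25 CPM in shIFITM3 against 5.12 ± 0.568 CPM in shControl (1.03, edgeR adjusted p = 3.4e-07). The catalytic AMPK subunit gene PRKAA1, whose product activates ULK1, fell to 256 ± 4.94 CPM in shIFITM3 against 291 ± 6.16 CPM in shControl (-0.19, edgeR adjusted p = 3.53e-05). Against a 1.2-fold change, 0 of the further core genes were called lower, so the PRKAA1 fall did not pass. ATG16L2, MAP1LC3C, ZFYVE1 and PRKAA1 were chosen after their values were seen.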
